A study of Mus musculus with 22 samples.

Results

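The joint interzone is the band of cells that marks where a synovial joint will form between the cartilage elements of the limb. Its cells leave the chondrocyte programme, make growth and differentiation factors and Wnt ligands, and give rise to articular cartilage, synovium and ligaments. BMP antagonists hold back cartilage formation around the forming joint, and lubricin appears later, as the joint surface matures. A set of 10 genes of this programme was followed here: the ligand genes Gdf5, Gdf6, Gdf7, Wnt9a and Wnt4, the antagonist gene Nog, the transcription factor genes Erg, Osr1 and Osr2, and the lubricin gene Prg4. Members were taken by gene name or RefSeq accession from the probes of the array that are not controls. This gave 13 probes for all 10 genes, of 41174 probes in all, and each of the 10 genes was among the 18644 genes and unnamed probes tested.

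The arrays carried RNA of forelimbs from mouse embryos at 13.5 days of age, of strain 129 per the labels, with 13 Chsy-1 knockout samples and 9 wild-type samples. Chsy1 encodes a chondroitin sulfate synthase, which lengthens the chondroitin sulfate chains of cartilage and other proteoglycans. The labels name no allele, do not say which part of the gene was altered, and do not say whether a sample is 1 embryo or a pool. The p-values therefore measure the spread between these samples. Forelimb RNA was in the Cy5 channel of every array and a universal mouse reference RNA in the Cy3 channel, so no dyes were swapped. Every value below is a log2 ratio of forelimb over reference, and differences are knockout minus wild type.

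Between 27214 and 30599 of 43379 spots per array were well above background in Cy5, at median Cy5 intensities of 102.8 to 178.9 units over a background of 54 to 57 units. The number of arrays limits the precision. All 6 slides held both genotypes, but positions on the slide did not. Knockout arrays filled position 3 (6 arrays) and position 4 (4 arrays), wild-type arrays filled position 1 (6 arrays), and position 2 had 3 of each. On every slide the knockout arrays sat at higher positions than the wild-type arrays, so comparisons by slide carry position too. Slides 4, 5 and 6 held 1 wild-type array each. Chsy1 averaged -4.38 ± 1.39 in knockout (SD, n = 13) and 1.73 ± 0.28 in wild type (SD, n = 9), and the array labelled knockout 1 stood apart from its group at 0.15. The forelimb factor gene Tbx5 averaged 2.41 in knockout and 2.20 in wild type. The hindlimb factor gene Pitx1 was also above the reference, at 5.45 in knockout and 5.64 in wild type. Tbx4, the other hindlimb factor gene looked at, was much nearer the reference, at 0.71 in knockout and 0.61 in wild type. Whether hindlimb tissue was present was not tested. Knockout 12 had a mean correlation of 0.937 with the other arrays and was the array farthest from the rest in 2 of the 10 genes. Wild type 1 had the lowest mean correlation, 0.912, and was farthest in 6 of the 10. How low these arrays lay depended on the measure used, and the reason was not tested. By the ratio used here knockout 12 was the lowest of the 22 arrays in 3 of the 10 genes and wild type 1 in 6, by the scanner software's ratio in 3 and 0, and by the Cy5 signal in 4 and 0.

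None of the 10 interzone genes passed an adjusted p of 0.05 in limma. Over the whole array 4 of 18644 passed, or 0.0215%, and all 4 were lower in knockout. Of the 10 genes, 6 were higher and 4 lower in knockout, from -0.12 in Gdf6 to 0.32 in Prg4, with a median of 0.067, but the split turned to 2 higher and 8 lower with the scanner software's ratio, where Gdf5, Gdf7, Erg and Nog changed sign. Centring arrays on their medians moved all genes up by 0.24 at the median, and relative to that 5 were higher and 5 lower. In the 6 arrays of slide position 2 the split was 1 higher and 9 lower, and without wild type 1 it was 4 and 6. Over all genes tested the median was -0.0072, and the median size of a difference was 0.058. At an unadjusted p of 0.05 the count was 1 of 10, Prg4, where 5.33% of all genes tested passed. The value ranges of the genotypes overlapped for each of the 10 genes, and did not overlap for 0.00536% of all genes tested. The spread between arrays was wide in this set: 8 of the 10 had a residual SD above the median of all genes, which was 0.192. Whole limbs were measured, so fewer interzone cells and less RNA per cell cannot be told apart.

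**Figure D1:**
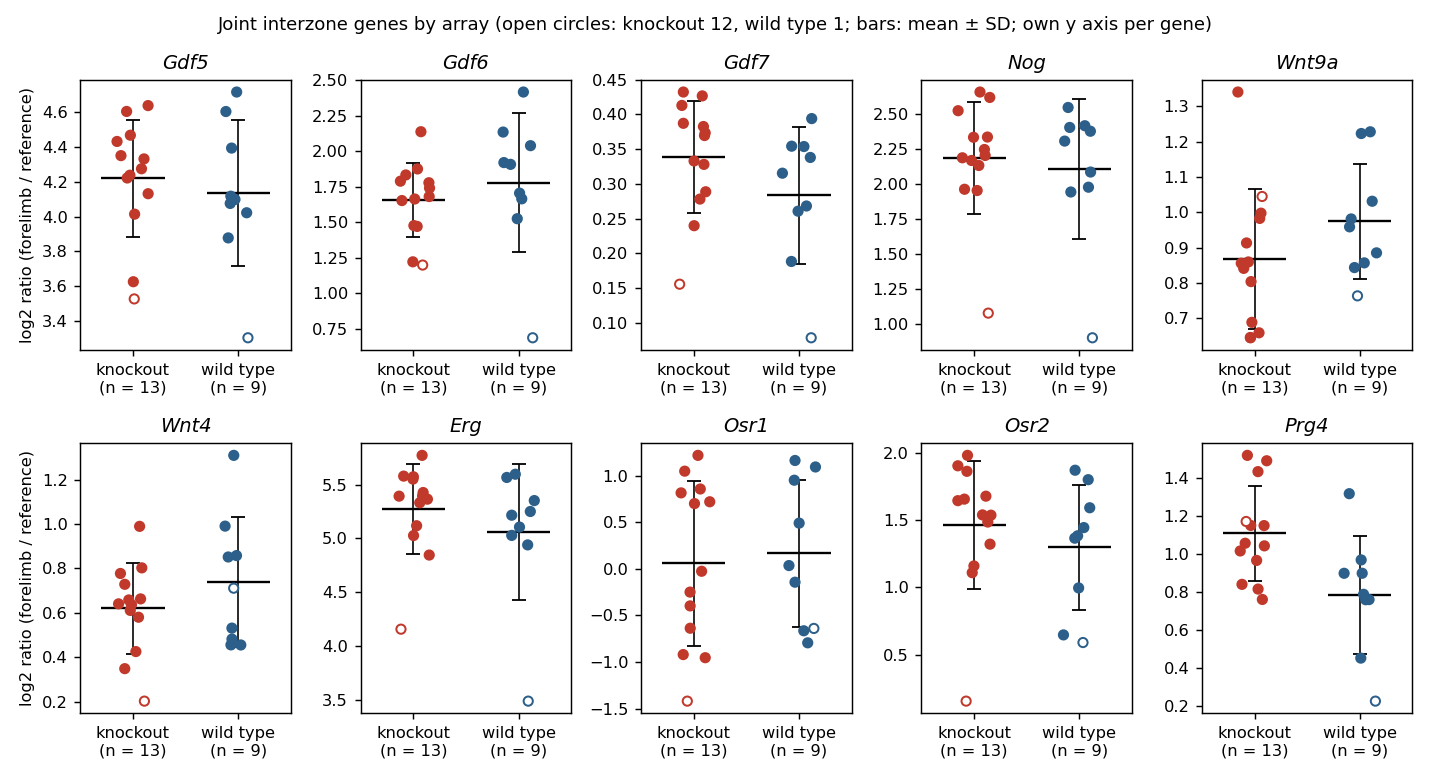
Log2 ratio of forelimb over reference RNA for each of the 10 interzone genes, 1 point per array, with knockout (n = 13) left of wild type (n = 9), and bars for the mean ± SD. The genotypes overlap in every panel, and the open circles of knockout 12 and wild type 1 lie at or near the bottom in Gdf5, Gdf6, Gdf7, Nog, Erg and Osr2.

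Gdf5 encodes the growth and differentiation factor that defines the early interzone and is needed for several joints of the limb. Its probe (mm8, chromosome 2, 155632692 to 155632747) had ratios of 3.53 at the lowest, 4.28 at the median and 4.64 at the highest in knockout, against 3.30, 4.10 and 4.72 in wild type. All 13 knockout arrays lay inside the wild-type range. The means were 4.22 ± 0.34 in knockout (SD, n = 13) and 4.13 ± 0.42 in wild type (SD, n = 9). The difference was 0.09 (SE 0.15, 95% interval -0.23 to 0.40, limma adjusted p = 0.98), which allows between 0.855-fold and 1.32-fold. Its sign rests on wild type 1, without which it was -0.018. By the scanner software's ratio the same arrays were not the low ends, at 4.94 for knockout 12 and 5.25 for wild type 1, among 4.57 to 5.63 over all arrays. By slide, Gdf5 was higher in knockout on 4 of 6 slides. Within position 2 it differed by -0.036, but by 0.17 without knockout 1.

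Gdf6 encodes a relative of Gdf5 that acts in joints of the wrist and ankle and in the skull. Its probe (chromosome 4, 9789396 to 9789455) had ratios of 1.20, 1.68 and 2.14 at the lowest, median and highest in knockout, against 0.69, 1.91 and 2.42 in wild type. Although all 13 knockout arrays lay inside the wild-type range, 1 of 13 was above the wild-type median. The means were 1.66 ± 0.26 in knockout (SD, n = 13) and 1.78 ± 0.49 in wild type (SD, n = 9). The difference was -0.12 (95% interval -0.43 to 0.19, limma adjusted p = 0.95). Without wild type 1, the lowest array of the set, it was -0.26 (-0.50 to -0.021, limma adjusted p = 0.90). Gdf6 was lower in knockout on 5 of 6 slides, and within position 2 it differed by -0.29, or by -0.11 without knockout 1. Its Cy3 signal was well above background on 1 of 22 arrays, so the denominator of this ratio is poorly measured. The Cy5 channel alone gave -0.29 (95% interval -0.52 to -0.054, unadjusted p = 0.018, limma adjusted p = 0.999), and the scanner software's ratio gave -0.27 (-0.68 to 0.15).

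Gdf7 encodes the third factor of this group, which acts in tendon and in the seminal vesicle as well as in joints. Its probe (chromosome 12, 8327661 to 8327720) was dim and its ratios were narrow, with 0.16, 0.37 and 0.43 in knockout against 0.078, 0.32 and 0.39 in wild type. The difference was 0.056 (95% interval -0.039 to 0.15, limma adjusted p = 0.93). The offset added in background correction compresses ratios at such signals, so this interval does not bound the RNA difference.

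The Wnt ligands of the interzone hold cells away from the chondrocyte fate through beta-catenin. Wnt9a, which marks the interzone early, was read by a probe at chromosome 11, 59149389 to 59149448. Its ratios were 0.64, 0.86 and 1.34 at the lowest, median and highest in knockout, against 0.76, 0.96 and 1.23 in wild type. The groups overlapped, and 4 of 13 knockout arrays were above the wild-type median. The difference was -0.11 (SE 0.079, 95% interval -0.27 to 0.056, limma adjusted p = 0.93), lower in knockout on 5 of 6 slides. Another Wnt9a probe (59147204 to 59147263) did not rise well above background in Cy5 on a single array and was not tested.

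Wnt4 is expressed in the interzone and joint capsule and acts in part redundantly with Wnt9a. The files place its probe at chromosome 4, 136567851 to 136568419, a span of 569 bases. Its ratios were 0.20, 0.64 and 0.99 in knockout, against 0.46, 0.71 and 1.31 in wild type. The knockout range reached lower and the wild-type range higher, with 4 of 13 knockout arrays above the wild-type median. The difference was -0.12 (95% interval -0.33 to 0.091, limma adjusted p = 0.94). Knockout was lower on 3 of 6 slides, and within position 2 the sign turned, to 0.083. Wild type was not alike across positions, at a mean of 0.86 in the 6 arrays of position 1 and 0.49 in the 3 arrays of position 2.

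Nog encodes noggin, a secreted protein that binds BMPs and GDF5 and without which joints fail to separate. Its probe (chromosome 11, 89117625 to 89117684) had ratios of 1.08, 2.21 and 2.66 at the lowest, median and highest in knockout, against 0.90, 2.31 and 2.55 in wild type. The low ends were knockout 12 and wild type 1, and the other arrays of both genotypes lay between 1.94 and 2.66. The difference was 0.078 (95% interval -0.29 to 0.45, limma adjusted p = 0.98) and -0.073 without wild type 1. Within position 2 all 3 knockout arrays, at 1.96 to 2.25, were below all 3 wild-type arrays, at 2.31 to 2.55. Nog was the 1 interzone gene of 10 without overlap there, where 6.97% of all genes tested had none, and its difference of -0.30 in those 6 arrays had a limma adjusted p of 0.9995. The wild-type arrays of position 1 averaged 1.96, below the wild-type mean of 2.41 in position 2.

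Erg encodes an ETS factor that in the limb marks the interzone and the later articular chondrocytes, and that is also made by endothelial cells. Its brighter probe (chromosome 16, 95468434 to 95468493) had ratios of 4.16, 5.39 and 5.77 at the lowest, median and highest in knockout, against 3.49, 5.22 and 5.60 in wild type. Both low ends were again knockout 12 and wild type 1. The means were 5.27 ± 0.42 in knockout (SD, n = 13) and 5.06 ± 0.63 in wild type (SD, n = 9), and the difference was 0.21 (95% interval -0.22 to 0.64, limma adjusted p = 0.94). Without wild type 1 it was 0.015. Another Erg probe (95469147 to 95469206), dim in Cy5 and in no array above background in Cy3, differed by 0.18 (-0.010 to 0.37). The 2 probes correlated over the 22 arrays at r = 0.59. The 14 endothelial markers were all tested, with 3 higher, 11 lower and none called, 0 higher and 14 lower with the scanner ratio, and 6 higher and 8 lower relative to all genes after median centring. Flt1, a VEGF receptor gene, had the smallest p of that list, at -0.11 (limma adjusted p = 0.92), and its other 3 probes gave 0.077, -0.045 and -0.097. The list's mean level, relative to all arrays, ran from -0.79 to 0.24 in knockout and from -0.97 to 0.30 in wild type. Its lowest arrays were knockout 12 and wild type 1, as for Erg by this ratio. By the scanner software's ratio wild type 1 was not low in Erg, at 7.30 against 6.70 to 8.46 in the other wild-type arrays. The part of endothelial RNA in the Erg values was not tested.

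Osr1 and Osr2 encode odd-skipped related zinc finger factors of limb connective tissue, and Osr2 and Osr1 act together in joint formation. Osr1 varied most among the 10 genes, with a residual SD of 0.85, at the 99.7 percentile of all genes tested. By its brighter probe (chromosome 12, 9605677 to 9605736) the ratios were -1.42, -0.026 and 1.22 at the lowest, median and highest in knockout, against -0.79, 0.036 and 1.16 in wild type. That is a spread of 6.23-fold among knockout samples and of 3.89-fold among wild-type samples. The medians lay close together and both genotypes held high and low arrays. The difference was -0.11 (95% interval -0.81 to 0.59, limma adjusted p = 0.99). Another Osr1 probe (9605243 to 9605302) followed the first over the 22 arrays at r = 0.99, with a spread from -0.80 to 1.23 in knockout and from -0.29 to 1.25 in wild type. The wide spread of Osr1 was thus read by both probes.

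Osr2 was read by a probe at chromosome 15, 35245525 to 35246540, a span of 1016 bases. Its ratios were 0.16, 1.54 and 1.98 at the lowest, median and highest in knockout, against 0.59, 1.38 and 1.87 in wild type. Knockout 12 was the low end of its group, and 9 of 13 knockout arrays were above the wild-type median. The difference was 0.16 (95% interval -0.23 to 0.56, limma adjusted p = 0.95), and 0.076 without wild type 1. Knockout was higher on 3 of 6 slides.

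**Figure D2:**
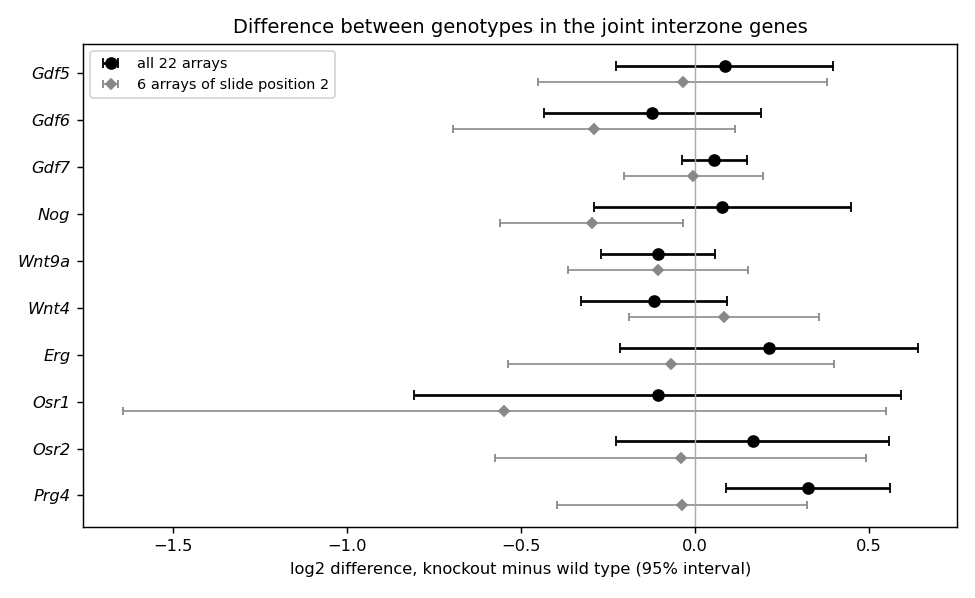
Log2 difference, knockout minus wild type, with its 95% interval for each interzone gene. Black points are all 22 arrays and grey diamonds the 6 arrays of slide position 2, which holds 3 arrays of each genotype. With all arrays Prg4 alone has an interval above 0, at 0.09 to 0.56, while in position 2 its value is -0.038 and that of Nog is -0.30.

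Prg4 encodes lubricin, the proteoglycan that coats articular surfaces, and had the largest difference of the 10 by the ratio used here. Relative to all genes after median centring, Erg (0.30) and Gdf6 (-0.24) exceeded Prg4 (0.21) in size. In position 2 Prg4 was among the smallest, at -0.038, with only Gdf5 (-0.036) and Gdf7 (-0.0048) nearer to no difference. The Prg4 probe lies at chromosome 1, 152212251 to 152212991, a span of 741 bases in the files. Its ratios were 0.76, 1.06 and 1.52 at the lowest, median and highest in knockout, against 0.22, 0.79 and 1.32 in wild type. Of the 13 knockout arrays, 12 lay above the wild-type median, and 10 lay inside the wild-type range. The means were 1.11 ± 0.25 in knockout (SD, n = 13) and 0.79 ± 0.31 in wild type (SD, n = 9). The difference was 0.32 (SE 0.11, 95% interval 0.089 to 0.56), or 1.25-fold, with an unadjusted p of 0.0090 and a limma adjusted p of 0.91 as number 181 of 18644 by p. No array had a Cy3 signal of this probe well above background, and the Cy5 channel alone gave 0.32 (0.031 to 0.62). Without an offset in background correction the difference was 0.49 (-0.026 to 1.00), and with the scanner software's ratio it was 0.57 (-0.080 to 1.22). Knockout 12 was the highest of the 22 arrays by the Cy5 signal, at 444 against at most 285 in the other knockout arrays. It was also the highest by the scanner software's ratio, at 5.76 against at most 5.25. Its weight in these 2 differences was not tested. The offset compresses this dim ratio too, so 1.25-fold does not bound the RNA difference.

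Within slides Prg4 was higher in knockout on 6 of 6, by 0.12 to 0.67. Knockout arrays held the higher positions on every slide, so these differences also carry position. The largest, 0.67 on slide 4, rests on 1 wild-type array. Across positions the wild-type arrays of position 1 averaged 0.68 and those of position 2 averaged 0.99. The knockout arrays averaged 0.96 in position 2, 1.12 in position 3 and 1.22 in position 4. In position 2, which holds both genotypes, knockout ran from 0.84 to 1.06 and wild type from 0.76 to 1.32, with a difference of -0.038 (-0.40 to 0.32). Without knockout 1 it was 0.020. Outside position 2, genotype and position cannot be told apart. Without wild type 1, the lowest array, the difference over all positions was 0.25 (0.035 to 0.47).

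**Figure D3:**
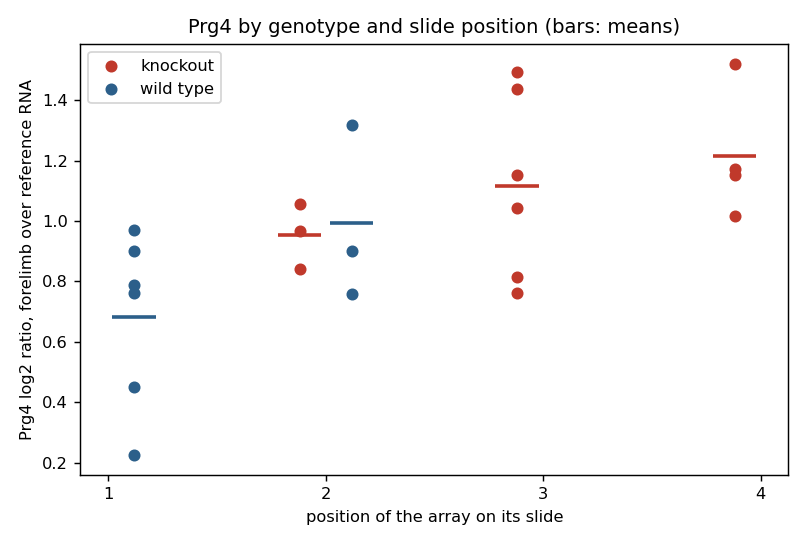
Prg4 log2 ratio of forelimb over reference RNA by position on the slide, 1 point per array and bars for the means, with knockout in red and wild type in blue. Means run from 0.68 in the wild-type arrays of position 1 to 1.22 in the knockout arrays of position 4, and in position 2 they are 0.96 in knockout and 0.99 in wild type.

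The 10 genes were also compared for how they varied from sample to sample once the genotype means were taken out. Gdf5 was set against the other 9 over the 22 arrays, by permutation of arrays within genotype with 100000 draws and Benjamini-Hochberg adjustment over the 9 relations. Wnt4 followed Gdf5 most closely, at r = 0.74 (raw p = 0.00012, adjusted p = 0.0011) and rho = 0.83 (raw p = 2e-05, adjusted p = 0.00018). Nog (r = 0.66, raw p = 0.0032, adjusted p = 0.014), Erg (0.64, 0.0050 and 0.015), Gdf6 (0.57, 0.012 and 0.026) and Osr2 (0.52, 0.015 and 0.028) also passed in r. In rho these 4 did not pass, at 0.39, 0.19, 0.32 and 0.25. Gdf7 (r = 0.41, rho = 0.16), Wnt9a (0.18 and 0.15), Osr1 (0.18 and 0.031) and Prg4 (0.18 and -0.025) passed in neither.

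The 2 arrays farthest in Gdf5 were knockout 12, at 3.53, and wild type 1, at 3.30. Without them the relation of Gdf5 with Wnt4 was r = 0.84 over 20 arrays, with a permutation p of 1e-05, the smallest that the draws can give, and an adjusted p of 9e-05. The other 4 came to 0.18 for Nog, 0.11 for Erg, 0.16 for Gdf6 and 0.11 for Osr2, so by the ratio used here those relations rest on these 2 arrays. With the scanner software's ratio and all 22 arrays, Erg passed (r = 0.64, adjusted p = 0.020), while Nog (0.38), Osr2 (0.14) and Gdf6 (0.027) did not. Among all 18643 other genes tested, Wnt4 was number 7 by closeness to Gdf5 over the 20 arrays, within the top 0.0375%. Over all 22 arrays it was number 221, within the top 1.19%. The Gdf5 and Wnt4 relation was 0.89 in knockout alone (n = 13, permutation p = 7e-05) and 0.63 in wild type alone (n = 9, exact permutation p = 0.070). Without wild type 1 the wild-type value was 0.90 (n = 8, exact permutation p = 0.0015). It was 0.75 with slide means taken out, 0.80 with position means taken out, 0.75 by the scanner software's ratio and 0.61 by the Cy5 channel alone.

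**Figure D4:**
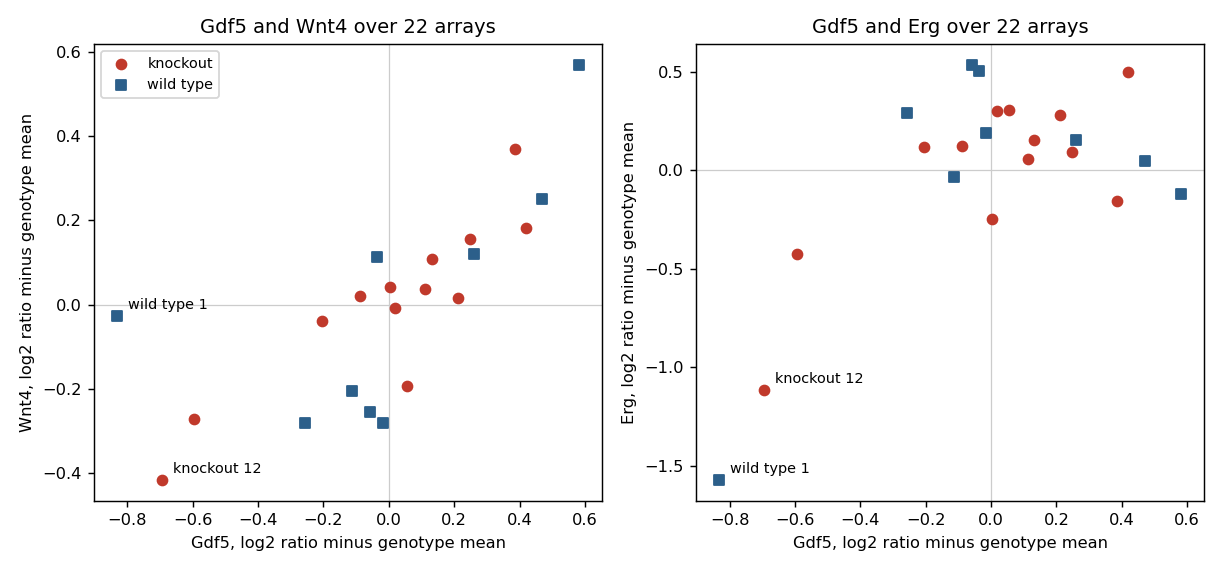
Log2 ratio minus the mean of the array's own genotype, for Gdf5 on the x axis and for Wnt4 (left) or Erg (right) on the y axis, 1 point per array, with knockout as red circles and wild type as blue squares. The relation with Wnt4 (r = 0.74) runs through the whole range. By this ratio the relation with Erg (r = 0.64) rests on knockout 12 and wild type 1, without which it was 0.11. By the scanner software's ratio over all 22 arrays r was 0.64 as well, but rho, at 0.47, did not pass.

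Marker lists of 7 cell types were set against Gdf5 and Wnt4, making 14 relations by permutation. All 7 correlated with Gdf5 in r, at 0.64 to 0.79. With Wnt4 3 of 7 correlated in r, namely surface ectoderm, erythroid (0.70 with Gdf5 and 0.53 with Wnt4) and skeletal muscle (0.64 and 0.48). In rho only surface ectoderm (0.71), endothelium (0.60) and erythroid (0.60) passed with Gdf5. With Wnt4 only surface ectoderm (0.66) and endothelium (0.54) passed in rho. The surface ectoderm list (Krt5, Krt14, Krt15, Epcam and Trp63, all 5 tested) followed Gdf5 at r = 0.79 (adjusted p = 0.00028) and Wnt4 at r = 0.63 (adjusted p = 0.0088). Without knockout 12 and wild type 1 these were 0.73 (adjusted p = 0.0080) and 0.69 (adjusted p = 0.015). Of the other 12 relations, 1 passed without those arrays, Wnt4 with endothelium (r = 0.58, adjusted p = 0.022). Whether the lists differ from each other in this was not tested. The ectoderm list's mean level ran from -0.41 to 0.14 in knockout and from -0.33 to 0.40 in wild type. With that mean taken out as well as genotype, Gdf5 and Wnt4 correlated at r = 0.52 (permutation p = 0.023). The cartilage mean taken out instead left 0.82, and the tendon mean 0.78. Neither of these lists had passed with Wnt4 (r = 0.22 for cartilage and 0.27 for tendon), so this comparison cannot single out the ectoderm list. The means of the remaining lists, erythroid and skeletal muscle among them, were not taken out. Of the 5 ectoderm markers 1 was higher and 4 were lower in knockout, also with the scanner ratio and relative to all genes after median centring, and none was called.

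The genes most like Gdf5 over the 22 arrays, members left out, were Mapk13 (r = 0.95), a stress kinase gene, Cldn3 (0.93), which encodes a tight junction protein of epithelia, Cilp2 (0.91), which encodes a cartilage matrix protein, Paqr6 (0.91), which encodes a membrane progestin receptor, and Apoe (0.91), which encodes a lipid carrier. Without wild type 1 they correlated with Gdf5 at 0.87 to 0.92. None differed between the genotypes in limma, with differences from -0.12 to 0.086 and adjusted p of 0.95 or more.

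Genes that carry or modulate the signals of these ligands were then counted. Of 16 genes of GDF receptors and mediators 15 were tested, 13 higher and 2 lower in knockout with a median of 0.085, and none was called. With the scanner ratio the split was 12 and 3, as it was relative to all genes after median centring, but in position 2 it was 5 higher and 10 lower. By unadjusted p 2 were under 0.05, where 5.33% of all genes tested were. Id2, a target of BMP and GDF signalling, differed by 0.17 (limma adjusted p = 0.92), but its other probe by -0.045. The common mediator Smad4 differed by 0.11 (0.0068 to 0.22), but by -0.010 with its other probe. Smad7, an inhibitor of the pathway, differed by 0.21 (-0.0078 to 0.43). The receptor gene through which GDF5 mainly acts, Bmpr1b, differed by 0.20 (-0.16 to 0.56). Smad9 was not above background on enough arrays to be tested.

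Among 14 BMP ligands and antagonists 9 were higher and 5 lower (median 0.029), or 6 and 8 relative to all genes after median centring, and 7 and 7 without wild type 1 (median -0.011). None was called, with 3 under an unadjusted p of 0.05, where 5.33% of all genes tested were. The antagonist genes Chrdl2 and Chrdl1 differed by 0.50 (95% interval 0.15 to 0.85) and 0.39 (0.13 to 0.65), with 0.11 by the other Chrdl1 probe. Fst, which encodes follistatin, an inhibitor of activins and BMPs, differed by -0.39 (-0.63 to -0.16). The limma adjusted p was 0.91 for each of the 3. Ligand genes stayed nearer 0, with Bmp2 at 0.063 (-0.41 to 0.53) and Bmp4 at -0.091 (-0.33 to 0.15).

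Among 15 genes of Wnt signalling 7 were higher and 8 lower (median -0.016), or 8 and 7 relative to all genes after median centring, and none was called. In position 2, and likewise without wild type 1, 4 were higher and 11 lower (medians -0.099 and -0.073). Frzb, a secreted Wnt antagonist of developing cartilage, differed by 0.31 (0.0031 to 0.62). It was the 1 gene of the list under an unadjusted p of 0.05, where 5.33% of all genes tested were. The coreceptor gene Lrp6 differed by -0.23 (-0.48 to 0.020), with the opposite sign, 0.13, by its other probe, and Ctnnb1, which encodes beta-catenin, by 0.11 (-0.042 to 0.25). The feedback target Axin2 stood at 0.19 (-0.13 to 0.52).

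Among 25 other interzone genes 11 were higher and 14 lower (median -0.036), or 14 and 11 relative to all genes after median centring. In position 2 the split was 4 higher and 21 lower (median -0.16), and without wild type 1 it was 9 and 16 (median -0.10). None was called, with 4 under an unadjusted p of 0.05, where 5.33% of all genes tested were. Ccn2, which encodes a matricellular growth factor of cartilage, differed by -0.39 (95% interval -0.61 to -0.16, limma adjusted p = 0.88). Jun, needed in joint cells for Wnt ligand expression, differed by 0.27 (0.11 to 0.43), the hyaluronan receptor gene Cd44 by -0.19 (-0.33 to -0.042), and the tenascin gene Tnc by -0.24 (-0.45 to -0.036). Their other probes gave -0.34 for Cd44, and -0.13 and -0.034 for Tnc. The cartilage markers, of which 4 were higher and 7 lower with a median of -0.10, or 6 and 5 relative to all genes after median centring, had none called. With the scanner ratio, and likewise without wild type 1, 1 was higher and 10 were lower, and in position 2 all 11 were lower (median -0.24). The mean of the other interzone genes stood at -0.22 relative to all arrays in knockout 12 and at -0.51 in wild type 1.

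**Figure D5:**
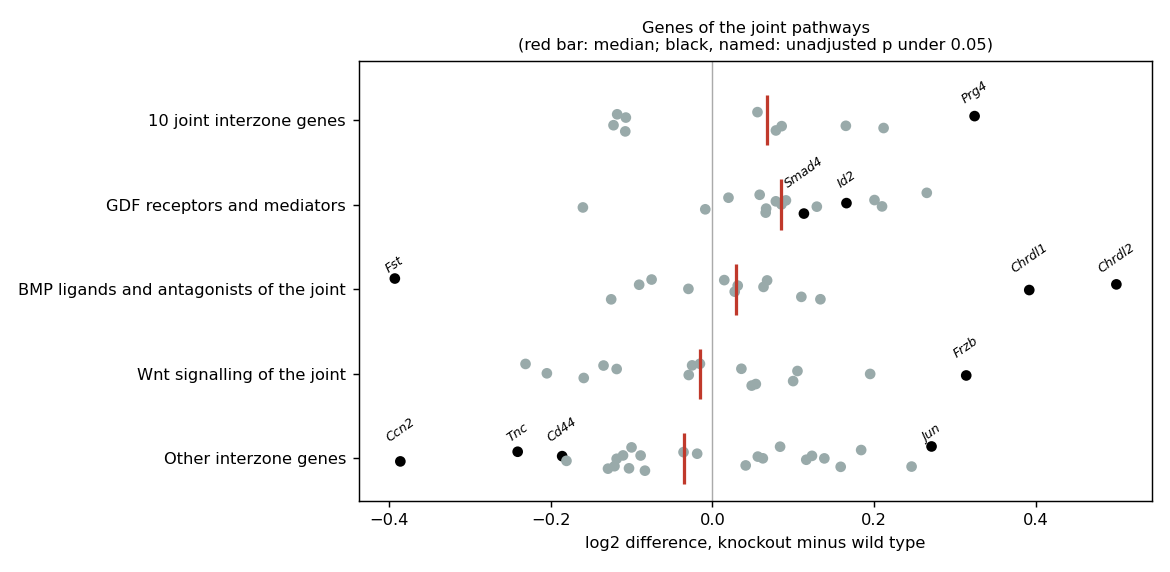
Log2 difference, knockout minus wild type, 1 point per gene, for the 10 interzone genes and 4 lists of related genes, with a red bar at each median and the genes of unadjusted p under 0.05 in black with their names. The medians are 0.067, 0.085, 0.029, -0.016 and -0.036 from top to bottom, and no gene shown passed an adjusted p of 0.05 in limma.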

How the data were processed

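Per the file headers, spots were read with Agilent Feature Extraction 9.5.3.1 (9.5 per the submitters' processing notes). The deposited mean and background intensities are raw, and the deposited ratios are log10 of Cy5 over Cy3 after that software's background subtraction and dye normalisation. The authors' value table equals these ratios, with a difference of 0 and column medians of 0. The scale and direction are thus the scanner's, while its centring is not given in the sources used here. Above-background flags are deposited as 0 or 1.

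From the deposited intensities, log2 ratios were computed with limma 3.58.1 in R 4.3.3, by normexp (offset 50) and loess within arrays. Control and outlier spots were left out. Probes well above background in Cy5 on at least 9 arrays were tested, 1 probe (the brightest) per gene. Names came through a GRCm38.p6 table, which matched 23374 probes by accession, 103 by another accession, 6678 by symbol and 2891 by older symbol. Coordinates are mm8, as in the files, and no annotation of that build was used.

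Genotypes were compared with lmFit and eBayes on 22 arrays without covariates, two-sided, with Benjamini-Hochberg adjustment over 18644 genes and unnamed probes. The fit and the correlations were tested on simulated data. Correlations used Python 3.11.15. The genes named are all members, the 3 of smallest p in each of the 4 pathway lists, the 5 most like Gdf5 and an endothelial marker beside Erg. Bmpr1b, Bmp2, Bmp4, Axin2 and Tnc were named after their values were seen. The members and lists were chosen with earlier results of these data known. Arrays correlated at 0.886 to 0.993, and none were identical. Of 9 shared replicate numbers, 3 gave pairs correlated over 0.1, so numbers were not taken as pairs. Alternatives covered background, normalisation, channel, filter, probes, slide, position, replicate number, weights and left-out arrays.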

Additional observations from a re-analysis of the deposited data

Results flagged for a closer look

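Of 13 probes of the interzone genes checked in the 9 wild-type arrays, 2 had 1 array far below the others, and both times it was wild type 1. The Erg ratio of wild type 1 was 3.49 on the log2 scale, and the next lowest wild-type array was at 4.94. The Nog ratio of wild type 1 was 0.90, with the next lowest at 1.94. Chance marks about 1 in 20 such groups, and these 2 share an array. That array had the lowest mean correlation with the others over all genes tested, 0.912. The share of all genes tested that the rule would mark was not counted. By the scanner software's ratio wild type 1 lay inside the range of the other wild-type arrays in both genes, at 7.30 against 6.70 to 8.46 for Erg and at 3.99 against 3.63 to 4.98 for Nog. Among the knockout arrays knockout 12 was the lowest in Nog, at 1.08 with the next at 1.96. In Osr2 it stood at 0.16, with the next at 1.11. In knockout 12 the mean of the cartilage markers stood at -0.61 relative to all arrays and that of endothelium at -0.79. The mean of limb mesenchyme was -0.58 there and that of tendon -0.41. Wild type 1 had -1.07, -0.97, -0.81 and -0.71 for the same 4 lists. These list means were taken by the same ratio that put wild type 1 low in Erg and Nog, so they are not a separate measure. By the Cy5 signal wild type 1 was number 5 from the lowest of 22 arrays in Erg and number 12 in Nog. The part of the 4 lists' tissues in the Erg and Nog values was not tested.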

How the results depend on the processing

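No interzone gene passed an adjusted p of 0.05 in any of 37 alternatives, 22 of which left out 1 array (370 values, lowest limma adjusted p 0.107), but 33 values changed sign. With the scanner software's ratio Gdf5 differed by -0.078, Gdf7 by -0.11, Erg by -0.18 and Nog by -0.039. Under median centring, where the all-gene median was 0.24, it was 0.18 for Wnt9a, 0.18 for Wnt4 and 0.20 for Osr1, or -0.062, -0.054 and -0.037 relative to that median, which keeps their sign, while Gdf7 came to -0.18 relative to it. Cy5 alone gave Nog -0.053, array weights -0.016, and leaving out knockout 1 with wild type 1 -0.054. With position as a block, and likewise in the 6 arrays of position 2, Gdf5 was -0.036, Gdf7 -0.0048, Wnt4 0.083, Erg -0.069, Prg4 -0.038, Osr2 -0.042 and Nog -0.30. Position 2 without knockout 1, chosen after seeing the data, gave Gdf7 -0.034, Wnt4 0.19, Osr2 -0.18 and Nog -0.22. The others had there the sign they had over all arrays. Gdf5 was 0.17, Gdf6 -0.11, Wnt9a -0.013, Erg 0.12, Prg4 0.020 and Osr1 -0.98. Leaving out 1 array gave -0.018 to 0.16 for Gdf5, -0.073 to 0.17 for Nog (both lowest without wild type 1) and -0.23 to 0.017 for Osr1 (above 0 without knockout 12 or wild type 3 or 8). The causes of these changes were not tested.

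Chsy1 lost its call in position 2 alone, at -4.66 (limma adjusted p = 0.9995), and kept it without knockout 1, at -6.15. The 4 genes called over the array became 1 with the scanner ratio, median centring, the slide block, the position block, position 2 without knockout 1, and without both knockout 12 and wild type 1. They became 2 without an offset or without knockout 1 and wild type 1, and 0 in position 2 alone. Leaving out 1 array gave 2 to 6, with 2 without wild type 2, 5 or 6. With the replicate number as a block, which the pairing check did not bear out, 1 gene was called, Gdf5 differed by 0.13 and Prg4 by 0.28. In that check 2 of 9 wild-type arrays correlated best with their own number.

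The count of members that correlated with Gdf5 in r was 5. It became 1 without the 2 farthest arrays, which are knockout 12 and wild type 1, and 2 with the scanner ratio. Without those arrays r was -0.19 for Gdf7, -0.088 for Prg4 and -0.18 for Osr1. With the scanner ratio it was -0.11 for Prg4 and -0.080 for Osr1. Wnt4 passed in each.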

Other observations

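Knockout 12 and wild type 1 separated from the rest on the second principal component of all genes tested, which held 22.9% of the variance, with scores of -33.8 and -54.1 against -7.67 for the next array. The share of a gene's variance on this component was 84.8% for Nog, 81.0% for Erg, 69.8% for Gdf7 and 61.4% for Gdf6. It was 48.2% for Osr2, 36.2% for Gdf5, 31.2% for Osr1 and 26.3% for Prg4, but 1.25% for Wnt4 and 0.771% for Wnt9a. On the first and second components together the median share of all genes tested was 39.7%, and 6 of the 10 interzone genes were above that.

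The genes most like other members over the 22 arrays were looked up after the values were seen, and are descriptions. Osr1 was followed by Grasp (r = 0.96) and by Chst2 (0.95), which encodes a sulfotransferase. The genes nearest to Gdf6 included Col17a1 (0.96), which encodes a collagen of epithelial attachment, and those nearest to Wnt4 included the basal keratin gene Krt15 (0.87). Prg4 had no close companion, since its nearest gene, the chondrocyte factor gene Sox5, reached 0.69. Sox5 itself differed by 0.34 between knockout and wild type (limma adjusted p = 0.91), but by 0.052 with its other probe.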
